A study of Mus musculus with 8 samples.

Results

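Gene expression after 72 h of tamoxifen or ethanol was compared across all genes in mouse embryonic stem cells in which Htatsf1 can be deleted. The members were chosen by label alone: the 4 libraries labelled 72 h among the 8 libraries of the series, 2 from cells given tamoxifen and 2 from cells given ethanol, the labelled control. All 8 libraries came from stem cells of tatsf1 flox/flox CreERT2 mice, grown on mouse embryonic fibroblast feeders (MEFs) in conventional ESC medium. Such cells carry floxed alleles and a Cre recombinase that becomes active when tamoxifen binds its receptor domain. The ethanol cells carry the same alleles and the same recombinase. Cells without floxed alleles that received tamoxifen were not analysed here, so effects of the deletion, of tamoxifen and of active Cre cannot be told apart. The labels do not give the promoter of the CreERT2, the number of lines or clones, or whether feeders were removed before RNA was isolated. The remaining 4 libraries, with the same agents at 48 h, are used for comparison and for a shared estimate of spread.

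HTATSF1 is an RNA-binding protein that joins the U2 small nuclear ribonucleoprotein, the particle that recognises the branch point of introns during splicing. The title of the series concerns the processing of messenger and ribosomal RNA in early embryos. Embryonic stem cells hold the identity of the early epiblast through transcription factors such as OCT4, SOX2 and NANOG, and they depend on high rates of ribosome production. In many cell types, faulty ribosome assembly is known to stabilise the stress-responsive transcription factor p53.

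Levels were measured as FPKM, a count of fragments scaled to transcript length and library size, which is a level per length on a linear scale. The 72 h tables rest on 10705732 to 16845703 fragments per library, as implied by the confidence bounds in the files. The 2 libraries of a group correlated at 0.995 over genes on the log2(FPKM + 1) scale in both groups. Of 20388 genes with a usable entry, 11867 had 2 or more of the 8 libraries at 1 FPKM or above and were tested with limma. A gene "rose" or "fell" where its Benjamini-Hochberg adjusted p was at most 0.05, and a log2 change is tamoxifen minus ethanol on the log2(FPKM + 1) scale, given with its standard error (SE). That scale understates the change of low genes. Whether the 2 libraries of a group were separate cultures is not given in the labels. The p-values therefore measure spread between libraries alone, and that spread may be technical. FPKM values below are given for replicate 1 and then replicate 2. Both tamoxifen libraries lay above both ethanol libraries in 35.2% of all tested genes, and below both in 34.5%. Such a separation, given for single genes below, is therefore common and describes the values only.

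The labelled cell type was checked on its markers. Pou5f1, which encodes OCT4, stood at 506 and 472 FPKM in ethanol and 517 and 529.9 FPKM in tamoxifen, and its log2 change of 0.10 did not pass (adjusted p = 0.181). Sox2 is listed at 0 in every library although the authors' deposited table gives it mean scaled counts of 9365 and 7871, so its FPKM was not used. That table lists it as lower with tamoxifen (log2 change -0.25). Other stem cell markers were present but not all level: Nanog (-0.51), Fbxo15 (-0.65) and Tdgf1 (-0.47) fell, and Esrrb did not pass (-0.04). Of 14 tested core factors 0 rose and 7 fell, where 20.1% of all tested genes rose and 18.5% fell. Fibroblast markers were present too, in cells that were grown on fibroblast feeders. Their 32 listed genes summed to 1188 and 1159 FPKM in ethanol and 2195 and 2351 FPKM in tamoxifen. Of the 30 tested, 29 rose and 0 fell (30 and 0 at an unadjusted p of 0.05), while Fap and Tcf21 stayed below the filter on low values and Fn1, the gene of fibronectin, did not pass at 0.16. In bulk RNA, fewer cells of a type and less RNA per cell cannot be told apart, so this marker rise can be read neither as more fibroblasts nor as more RNA in each.

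Htatsf1 itself lies on chromosome X (chrX:54306747-54320359, mm9) and stood at 22.7 and 22.7 FPKM in ethanol and 4.12 and 4.63 FPKM in tamoxifen. Both tamoxifen libraries lay far below both ethanol libraries, a log2 change of -2.14 ± 0.08 (SE, limma adjusted p = 1.56e-07). At 48 h the log2 change was -2.24, and the test of 72 h against 48 h gave an adjusted p of 0.683. Of the 5 tested genes next to Htatsf1 on the chromosome, 1 rose and 1 fell, which is 40% called, near the 38.5% of all tested genes. The microtubule-associated Mtap7d3 changed by -0.58 and the LIM protein gene Fhl1 by 0.26. The call of Fhl1 was lost without ethanol replicate 1 (adjusted p = 0.108) or tamoxifen replicate 2 (0.0742), and that of Mtap7d3 without ethanol replicate 2 (0.0722) or tamoxifen replicate 2 (0.0584).

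By 72 h the response had spread to a large part of the expressed genome in small steps. In all, 4572 genes changed, which is 38.5% of those tested: 2380 rose (20.1%) and 2192 fell (18.5%). The median size of a called change was 0.39 on the log2 scale, and 68.5% of the called genes changed by less than 0.5. Rises outnumbered falls among large changes: 183 genes rose at least 2-fold (1.54%) and 11 fell at least 2-fold (0.0927%). These counts were 414 and 64 with a pseudocount of 0.1 in place of 1, and 48 and 4 with a pseudocount of 5. Without ethanol replicate 2 the number of falls was 1460, and the falls of at least 2-fold numbered 20 without tamoxifen replicate 1 and 19 without tamoxifen replicate 2. Over all tested genes the median log2 change was -0.01. Rises made up 52.1% of the calls here and 47.2% after median-ratio scaling or quantile normalization, which put the median at -0.02 and -0.03. Genes of low level rose more often and genes of high level fell more often: in the lowest of 4 level classes of equal size 22.1% rose and 10.6% fell, and in the highest class 16.8% rose and 24.8% fell.

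**Figure D1:**
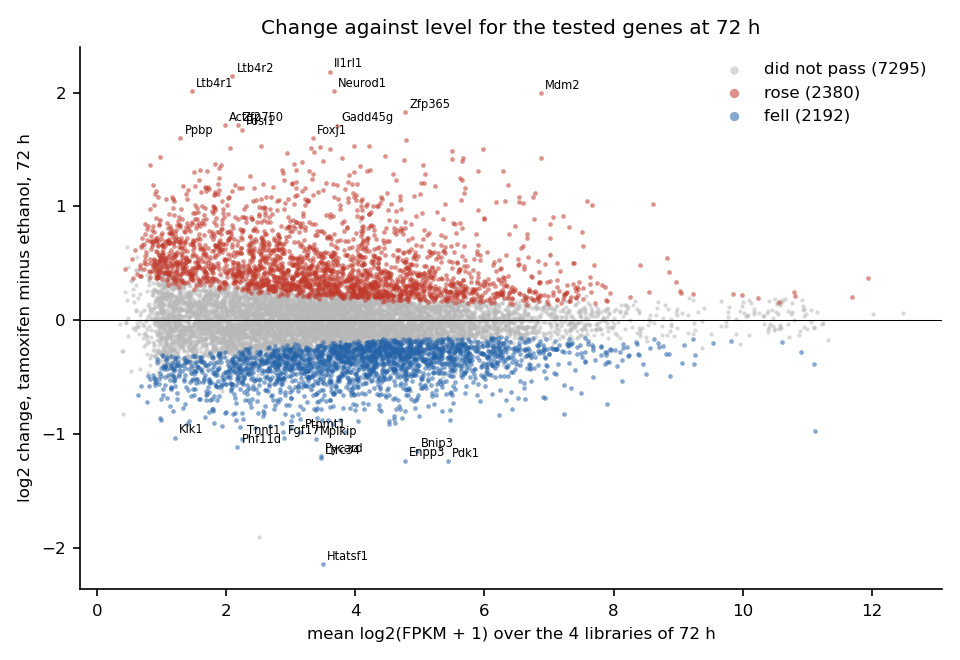
Log2 change (tamoxifen minus ethanol at 72 h, vertical axis) against mean log2(FPKM + 1) over the 4 libraries of 72 h (horizontal axis) for the 11867 tested genes, one point each, coloured by whether the gene rose, fell or did not pass. The rises reach past 2, while Htatsf1 stands alone among the falls at -2.14; the uncoloured point near it is Amd1, whose FPKM ran from 24.4 and 3.76 in ethanol to 7.61 and 0.0034 in tamoxifen and which did not pass.

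The largest rises were led by receptors for inflammatory signals. The 12 largest rises and the 12 largest falls were picked only among called genes whose groups do not overlap. Their separation is therefore part of the choice and no further result. Il1rl1 (chr1:40496494-40522259, mm9), the receptor of interleukin IL33, stood at 4.52 and 4.93 FPKM in ethanol and 23.9 and 26.1 FPKM in tamoxifen, a log2 change of 2.18 ± 0.08 (limma adjusted p = 1.56e-07). Ltb4r2 (chr14:56380265-56382066), a receptor of leukotriene B4, stood at 0.986 and 1.09 FPKM against 8.32 and 7.71 FPKM. Its neighbour Ltb4r1 (chr14:56384799-56387329), the other receptor of that lipid, stood at 0.258 and 0.515 FPKM against 4.25 and 4.93 FPKM. The tamoxifen libraries of all 3 receptors lay above both ethanol libraries with no overlap, with log2 changes of 2.14 ± 0.14 for Ltb4r2 and 2.02 ± 0.13 for Ltb4r1. Ppbp, a platelet chemokine precursor, was low throughout, at 0.107 and 0.783 FPKM in ethanol and 2.69 and 3.93 FPKM in tamoxifen, and its ethanol libraries differed from each other several-fold. Its change was 1.60 ± 0.24 (adjusted p = 0.00063).

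Transcription factors and stress genes were among the other large rises. Neurod1, a factor of neuronal and endocrine differentiation, stood at 5.22 and 5.46 FPKM in ethanol and 25.9 and 23.3 FPKM in tamoxifen. Foxj1, which drives the making of motile cilia, stood at 4.86 and 4.80 FPKM against 16.9 and 16.5 FPKM. Fosl1, an AP-1 subunit whose gene overlaps Ccdc85b, stood at 1.79 and 1.52 FPKM against 7.13 and 7.82 FPKM. In all 3 the libraries of the groups were apart, as the choice required, with log2 changes of 2.01 ± 0.08, 1.60 ± 0.09 and 1.68 ± 0.10. Zfp750, a factor of epidermal differentiation that overlaps Tbcd, stood at 1.86 and 1.20 FPKM in ethanol and 7.61 and 6.87 FPKM in tamoxifen. Gadd45g, a stress-inducible growth arrest gene, stood at 6.52 and 6.10 FPKM against 23.4 and 22.4 FPKM. Both were higher in both tamoxifen libraries (1.72 ± 0.13 and 1.71 ± 0.08), as was Actg2, the actin of visceral smooth muscle, at 1.71 ± 0.14 from 1.49 and 0.925 FPKM to 5.76 and 6.61 FPKM. The strand of counting is not given in the sources used here, so fragments of overlapping genes cannot be told apart.

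The largest falls after Htatsf1 included genes of mitochondrial and energy metabolism. Pdk1, the kinase that holds pyruvate dehydrogenase inactive, stood at 67.1 and 64.0 FPKM in ethanol and 26.9 and 27.6 FPKM in tamoxifen (log2 change -1.23 ± 0.06, limma adjusted p = 9e-07). Bnip3, a mediator of mitophagy, stood at 47.5 and 43.1 FPKM against 18.4 and 21.4 FPKM (-1.15 ± 0.09). Ptpmt1, a mitochondrial phosphatase needed for cardiolipin synthesis, stood at 11.5 and 11.5 FPKM against 5.62 and 5.07 FPKM (-0.98 ± 0.10). All 3 were lower in both tamoxifen libraries. Enpp3, an ectonucleotidase, stood at 40.9 and 40.8 FPKM in ethanol and 16.5 and 17.1 FPKM in tamoxifen (-1.23 ± 0.08). Pycard, the ASC adaptor of inflammasomes, stood at 16.0 and 15.4 FPKM against 6.32 and 6.28 FPKM (-1.19 ± 0.10). The leucine-rich repeat gene Lrrc34, which overlaps Lrriq4, stood at 15.7 and 16.1 FPKM against 6.08 and 6.51 FPKM (-1.21 ± 0.13). These genes too had no overlap between the groups, as the choice required. The remaining 5 of the 12 largest falls lay between -1.11 and -1.03. They were Phf11d, Mplkip, the slow troponin gene Tnnt1, the growth factor gene Fgf17 (10.1 and 9.23 FPKM against 4.33 and 4.08 FPKM) and the kallikrein gene Klk1. Klk1 was low, with mean scaled counts of 26.9 in ethanol and 6.79 in tamoxifen in the authors' deposited table.

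**Figure D2:**
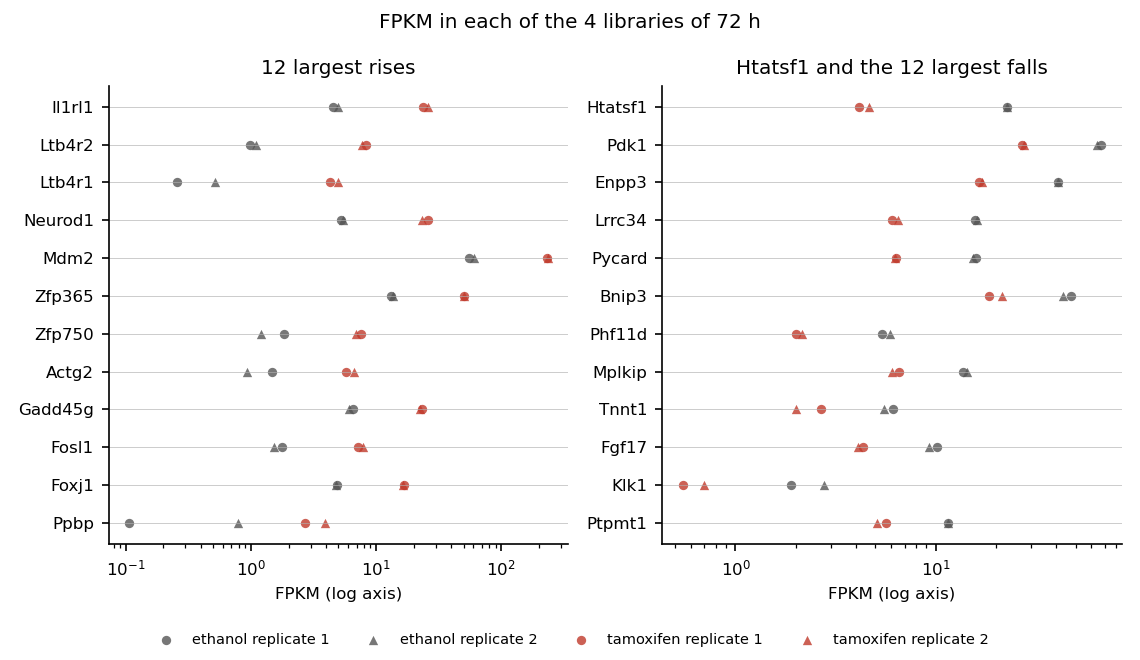
FPKM (horizontal log axis) of the 12 largest rises, and of Htatsf1 with the other 11 of the 12 largest falls, in each of the 4 libraries of 72 h; circles are replicate 1, triangles replicate 2, grey ethanol and red tamoxifen. The red and grey points are apart for every gene shown because genes were picked only where the groups do not overlap. The 2 ethanol points are farthest from each other in Ppbp (0.107 and 0.783 FPKM).

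Gene lists of pathways and cell types place these genes in their groups. Up to 3 tested members, those of smallest p, are named from each list, and further members of small groups were named after their values were seen. The shares of each list are read beside the 20.1% of all tested genes that rose and the 18.5% that fell. Fibroblast markers, matrix genes, cytokines and p53 targets stood at the rising end, and genes of cholesterol, serine and DNA synthesis at the falling end.

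**Figure D3:**
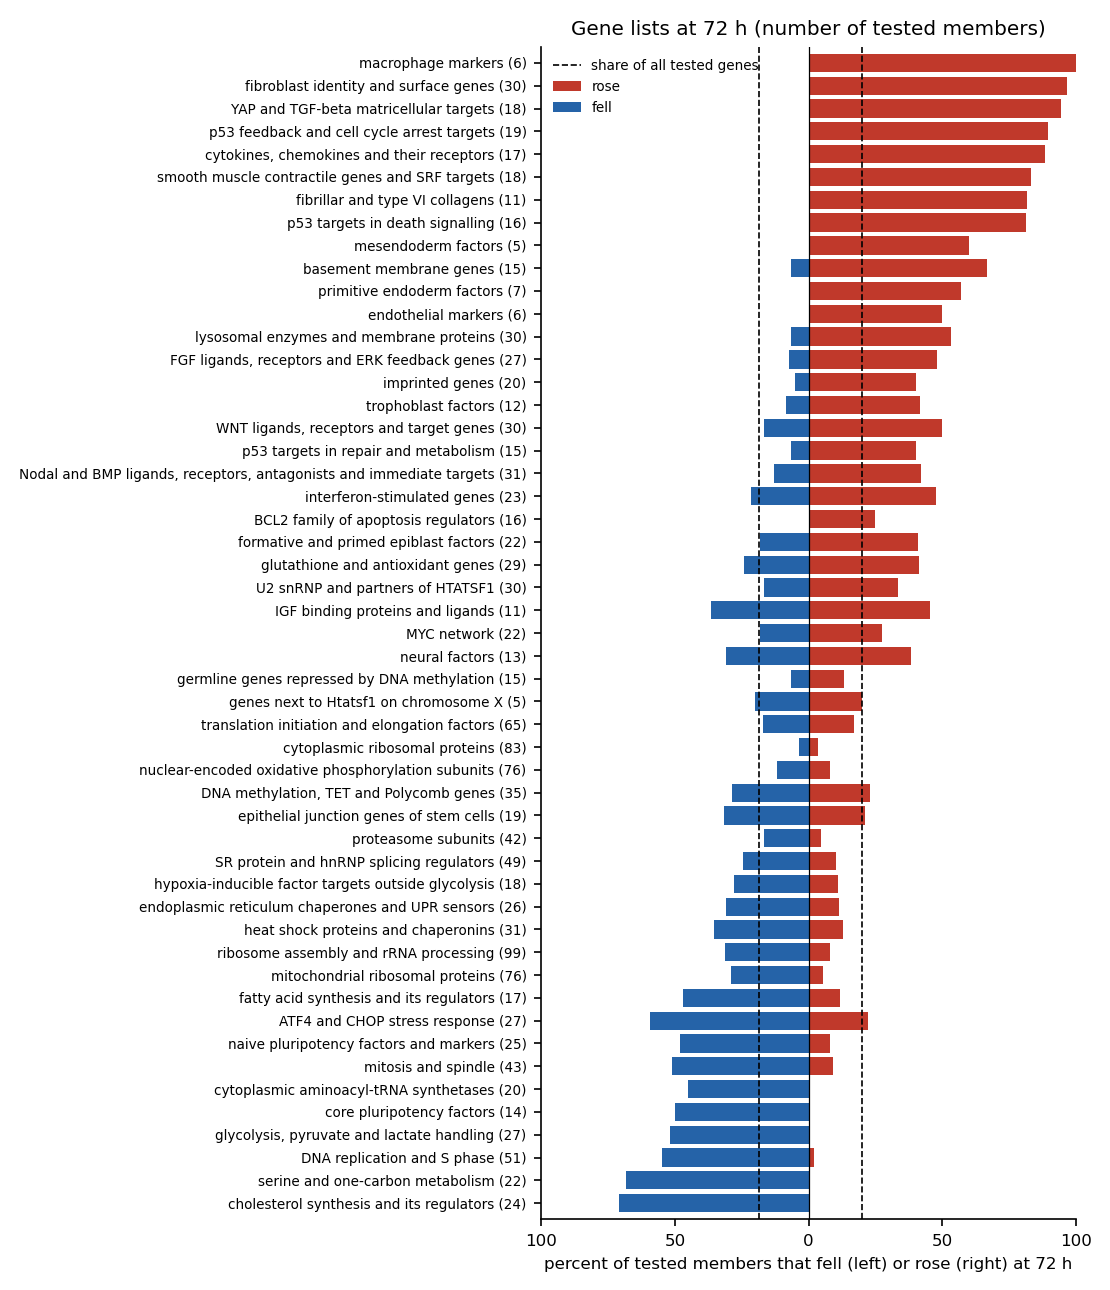
Percent of the tested members of each gene list that rose (red, right of 0) or fell (blue, left of 0) at 72 h, with the number of tested members in brackets and dashed lines at the shares of all tested genes (20.1% rose, 18.5% fell). The lists run from macrophage markers (6 of 6 rose) to cholesterol synthesis (17 of 24 fell).

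Targets of p53 rose together. Of 19 tested targets in feedback and cell cycle arrest, 17 rose and 0 fell by limma (0 at an unadjusted p of 0.05), with a median log2 change of 0.58 against -0.01 over all genes. Mdm2, the ubiquitin ligase that degrades p53, stood at 55.7 and 60.1 FPKM in ethanol and 234 and 234 FPKM in tamoxifen (2.00 ± 0.06). Zfp365, a p53-induced zinc finger gene, stood at 13.1 and 13.8 FPKM against 50.1 and 50.7 FPKM (1.83 ± 0.06). Cdkn1a, the p21 inhibitor of cyclin-dependent kinases, stood at 50.4 and 46.8 FPKM against 122 and 122 FPKM (1.31 ± 0.06); it was chosen after its values were seen. All 3 were higher in both tamoxifen libraries, as was the kinase gene Plk2 at 1.58. Among 16 targets in death signalling 13 rose and 0 fell (1 at an unadjusted p of 0.05), with a median of 0.45; without ethanol replicate 2 or tamoxifen replicate 2 the falls numbered 1. Perp, a membrane protein of p53-dependent apoptosis, stood at 25.9 and 27.4 FPKM against 70.3 and 75.6 FPKM (1.42 ± 0.06). Pmaip1 (NOXA) and Bbc3 (PUMA), which block the survival proteins of the BCL2 family, changed by 1.4 and 0.85. Bax, a pore-forming member of that family, stood at 136 and 147 FPKM against 149.8 and 169.8 FPKM; its change of 0.17 did not pass, but did without tamoxifen replicate 1 (0.26, adjusted p = 0.0262).

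Targets of p53 with roles in repair and metabolism moved in both directions, and 46.7% passed, beside 38.5% of all tested genes. Of 15 such targets, 6 rose and 1 fell (median 0.09), led by the proline-catabolic Aldh4a1 (0.85), the adenylate kinase Ak1 (0.95) and the epoxide hydrolase Ephx1 (1.16). The gene that fell was the glutaminase Gls2 (-0.39), which overlaps Spryd4. In the BCL2 family as a whole 4 of 16 rose and 0 fell (0 at an unadjusted p of 0.05); they were Pmaip1, Bbc3 and the survival genes Bcl2l1 (BCL-XL, 0.68) and Mcl1 (0.38). Fibroblast markers rose in the same libraries by a median of 1.04, and fibroblasts also express p53 targets; their part in the p53 list was not tested.

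Genes of the U2 particle and its partners moved in both directions. Of 30 tested, 10 rose and 5 fell, with a median of 0.07, and 50% passed, beside 38.5% of all tested genes. Sf3b3, a scaffold subunit of the SF3B complex that holds the branch point, stood at 141 and 135 FPKM in ethanol and 242 and 231 FPKM in tamoxifen (0.77 ± 0.05). Rbm17 (SPF45), a splicing factor that binds the same class of SF3B1 motifs as HTATSF1, stood at 76.8 and 76.6 FPKM against 126 and 135 FPKM (0.76 ± 0.05). Dnajc8, a spliceosome-associated chaperone gene, stood at 116 and 122 FPKM against 76.2 and 81.4 FPKM (-0.59 ± 0.06). The first 2 were higher and the third lower in both tamoxifen libraries. The other falls included Rbm5 (-0.65), U2surp (-0.44) and Smndc1 (-0.26), the last not without ethanol replicate 2 (adjusted p = 0.0573); among the rises was the helicase gene Ddx46 (0.51). The count of rises depended on settings and single libraries. There were 6 rises and 6 falls with median-ratio scaling, and 4 and 5 with no mean trend or with the 72 h libraries alone. The rises were 5 and 4 without ethanol replicates 1 and 2, and 5 without ethanol replicate 1 or 2 of 48 h. Of 49 SR and hnRNP splicing regulators 5 rose and 12 fell (median -0.04), the rises numbering 3 without ethanol replicate 1. They included Mbnl2 (0.84), a muscleblind regulator of differentiation-linked exons, Hnrpdl (-0.51) and Srsf11 (0.36).

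Ribosome assembly genes fell more often than they rose, by small amounts. Of 99 tested, 8 rose and 31 fell (median -0.07); without ethanol replicate 2 these counts were 5 and 19. Dimt1, the dimethylase of the small ribosomal RNA, stood at 21.8 and 22.0 FPKM in ethanol and 11.8 and 13.0 FPKM in tamoxifen (-0.78 ± 0.09). Utp20, a component of the small subunit processome, stood at 27.7 and 28.5 FPKM against 45.1 and 41.1 FPKM (0.60 ± 0.07). The small subunit genes Dimt1 and Utp20 thus moved in opposite directions, and Tbl3, another processome gene, changed by -0.46. The groups did not overlap in Dimt1 and Utp20, as in a large part of all tested genes (35.2% above and 34.5% below). Mitochondrial ribosomal protein genes counted 4 rises and 22 falls among 76 (median -0.12), led by Mrps10 (-0.57), Mrps9 (-0.49) and Mrps24 (-0.61). Those falls numbered 12 without ethanol replicate 1 and 14 without ethanol replicate 2 or tamoxifen replicate 1.

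Few cytoplasmic ribosomal protein genes passed. Of 83, 3 rose and 3 fell (10 and 4 at an unadjusted p of 0.05; median 0.05), far below the 38.5% of all genes that changed. Libraries of the same group differed in this list, with mean log2(FPKM + 1) of 9.97 and 9.83 in ethanol and 9.84 and 10.02 in tamoxifen. Whether this spread kept changes from passing was not tested. The 3 with the smallest p were paralogs of the standard proteins, Rpl22l1 (-0.53), Rpl39l (-0.44) and the p53 target Rps27l (0.34); genes of this family have many near-identical pseudogene copies, which makes their counts uncertain. Leaving out ethanol replicates 1 and 2 and tamoxifen replicates 1 and 2 in turn gave 5, 1, 7 and 1 rises, and 5 falls without the last. Translation factors moved in both directions, with 11 rises and 11 falls among 65 (7 and 7 with no mean trend, 7 rises after quantile normalization, 6 with 72 h alone, 3 and 5 without ethanol replicate 2 or without tamoxifen replicate 1), and a median of 0.00 that was -0.02 after median-ratio scaling. The shares of translation factors that rose and fell were close to the 20.1% and 18.5% of all tested genes, so this list did not stand out. Its leading genes were the synthetase-complex gene Eef1e1 (-0.49), the cap-binding scaffold Eif4g3 (-0.37) and Eif2s1 (-0.39), the subunit of eIF2 that stress kinases phosphorylate.

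Aminoacyl-tRNA synthetases, which charge tRNAs with amino acids, only fell among those that passed. Of 20 cytoplasmic enzymes, 0 rose and 9 fell by limma (0 and 11 at an unadjusted p of 0.05), with a median of -0.16. The leucine enzyme gene Lars stood at 98.7 and 106 FPKM in ethanol and 64.3 and 60.8 FPKM in tamoxifen (-0.70 ± 0.06). The isoleucine enzyme gene Iars stood at 92.5 and 93.1 FPKM against 66.4 and 64.9 FPKM (-0.49 ± 0.05). Both were lower in both tamoxifen libraries, and so was the cysteine enzyme gene Cars (-0.58).

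These genes belong to a wider set induced by ATF4, the transcription factor of the amino acid and integrated stress response, and that set divided. Of 27 tested genes of the ATF4 and CHOP response, 6 rose and 16 fell (median -0.29). Chac1, a glutathione-degrading enzyme, stood at 19.2 and 18.9 FPKM in ethanol and 9.44 and 8.91 FPKM in tamoxifen (-0.98 ± 0.07). Gpt2, the mitochondrial alanine transaminase, stood at 30.8 and 32.0 FPKM against 17.0 and 17.2 FPKM (-0.84 ± 0.06). Ddit4, an inhibitor of mTORC1 that p53 also induces, stood at 81.5 and 73.7 FPKM against 126 and 131 FPKM (0.72 ± 0.07). Chac1 and Gpt2 were lower and Ddit4 higher in both tamoxifen libraries. Among genes chosen after their values were seen, the secreted Stc2 (-0.94), the mitochondrial Pck2 (-0.72) and the asparagine synthetase Asns (-0.47) fell. Ddit3, which encodes CHOP and overlaps Mars, stood at 13.2 and 15.4 FPKM in ethanol and 29.9 and 34.5 FPKM in tamoxifen and rose (1.12), as did Cebpb (0.70), Sesn2 (0.59) and Gdf15 (0.45). Gdf15 did not pass without ethanol replicate 2 (adjusted p = 0.0755) or tamoxifen replicate 2 (0.0713). Atf4 itself stood at 186 and 194 FPKM against 143 and 169 FPKM and fell (-0.29), but not without ethanol replicate 2 (adjusted p = 0.0769) or tamoxifen replicate 1 (0.0804).

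The promoters of the 2 lists were searched for the C/EBP-ATF response element, which ATF4 and CHOP bind as heterodimers with C/EBP proteins. The letters searched were TGATGNAA, and TTNCATCA on the other strand, in the 300 bases from 250 before to 50 after each start in RefSeq (GRCm38.p6). The motif lay in 3.97% of all promoters and at 2.61% of tested genes with a promoter entry. It was found at 9 of 23 matched genes of the ATF4 list, of which 5 fell, 4 did not pass and 0 rose (median -0.47). Of the 14 matched genes without it, 6 rose and 7 fell (median -0.01). Among the synthetases 5 of 13 held it, of which 3 fell, and of those without it 3 fell and 5 did not pass. In each list the promoter shown is that of the changed gene with the smallest p that holds the motif, a rule chosen after values were seen. The Chac1 promoter (chr2:119350992-119351291, plus strand) holds it 193 bases before the start, and the Iars promoter (chr13:49681880-49682179, plus strand) holds it at base 8 counted from the start as 1; capitals mark the match.
Chac1: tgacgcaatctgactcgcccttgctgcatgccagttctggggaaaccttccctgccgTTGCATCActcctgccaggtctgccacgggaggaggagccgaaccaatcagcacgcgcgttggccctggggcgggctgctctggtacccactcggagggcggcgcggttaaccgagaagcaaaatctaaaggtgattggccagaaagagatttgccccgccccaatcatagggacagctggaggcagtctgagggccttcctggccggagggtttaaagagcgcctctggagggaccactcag
Iars: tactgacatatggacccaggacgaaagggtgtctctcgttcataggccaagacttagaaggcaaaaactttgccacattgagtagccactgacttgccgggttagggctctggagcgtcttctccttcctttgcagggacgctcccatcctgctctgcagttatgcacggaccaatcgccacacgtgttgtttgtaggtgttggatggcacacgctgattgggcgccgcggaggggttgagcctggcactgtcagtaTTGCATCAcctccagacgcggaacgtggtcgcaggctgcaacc
A match describes letters in a window and does not show binding.

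Serine and one-carbon metabolism feeds nucleotide and glycine synthesis, and its genes that passed all fell. Of 22 tested genes 0 rose and 15 fell by limma (0 and 16 at an unadjusted p of 0.05), with a median of -0.32. Psat1, the serine pathway transaminase, stood at 220.3 and 225 FPKM in ethanol and 143 and 143 FPKM in tamoxifen (-0.64 ± 0.06). Shmt2, which passes the serine carbon to folate in mitochondria and overlaps Ndufa4l2, stood at 64.4 and 61.3 FPKM against 42.3 and 41.2 FPKM (-0.58 ± 0.05). The groups did not overlap in either gene, and the folate enzyme Mthfd1l changed by -0.60. Only 1 of 19 matched genes of this list held the C/EBP-ATF motif.

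Cholesterol synthesis fell in the larger part of its genes. Of 24 tested, 0 rose and 17 fell by limma (0 and 18 at an unadjusted p of 0.05), with a median of -0.38. Dhcr7, the last enzyme of the pathway, stood at 33.9 and 30.8 FPKM in ethanol and 21.8 and 21.4 FPKM in tamoxifen (-0.56 ± 0.07). Sc4mol, the sterol methyl oxidase, chosen after its values were seen, stood at 75.7 and 79.0 FPKM against 42.7 and 51.8 FPKM (-0.70 ± 0.10). The tamoxifen libraries were the lower ones in both, as in squalene epoxidase (Sqle, -0.52) and the sterol sensor Insig1 (-0.54). In the ethanol cells alone this list's median change between the times was 0.70. Fatty acid genes were mixed, 2 rises and 8 falls among 17 (median -0.20). The desaturase gene Scd2 (-0.37) and the citrate carrier gene Slc25a1 (-0.36) fell and the front-end desaturase Fads3 rose (0.60). The fatty acid falls numbered 4 without ethanol replicate 1, and the rises numbered 1 whichever library of 72 h or tamoxifen library of 48 h was left out.

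Glycolytic genes that passed fell. Of 27 tested genes of glycolysis and of pyruvate and lactate handling, 0 rose and 14 fell by limma (0 and 15 at an unadjusted p of 0.05), with a median of -0.20. Ldhb, a lactate dehydrogenase subunit, stood at 199 and 197 FPKM in ethanol and 104 and 120.1 FPKM in tamoxifen (-0.82 ± 0.07). Pfkp, the platelet form of phosphofructokinase, changed by -0.56; it overlaps Pitrm1, which changed by -0.45. Targets of hypoxia-inducible factor outside glycolysis divided, with 2 rises and 5 falls among 18 (median -0.11). The vasoactive peptide gene Adm stood at 2.00 and 0.959 FPKM against 4.90 and 4.21 FPKM and rose (1.19 ± 0.17), and the collagen prolyl hydroxylase P4ha2 rose too (0.63). With Bnip3 the mitophagy gene Bnip3l (-0.36), the oxygen sensor Egln3 (-0.43), the adenylate kinase Ak4 (-0.32) and the angiogenic Vegfa (-0.31) fell, the last not without ethanol replicate 2 (adjusted p = 0.0592) or tamoxifen replicate 1 (0.071).

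The hypoxia response core, the letters ACGTG or CACGT on the other strand, lay in 19.6% of all promoters and at 29.7% of tested genes with an entry. It was found at 16 of 26 matched glycolytic genes, of which 9 fell and 7 did not pass. Of the matched glycolytic genes without it 5 fell and 5 did not pass, Pdk1, Ldhb and Pfkp being among these falls. The median log2 changes with and without it were -0.21 and -0.22. It was also found at 13 of 16 matched other targets, of which 4 fell and 1 rose, and of those without it 0 fell and 1 rose. The Bnip3 promoter (chr7:138909457-138909756, minus strand, GRCm38.p6) is shown as that of the changed target with the smallest p. Its capitals mark a palindrome read as overlapping matches on the strands, with first bases 108 and 107 before the start.
Bnip3: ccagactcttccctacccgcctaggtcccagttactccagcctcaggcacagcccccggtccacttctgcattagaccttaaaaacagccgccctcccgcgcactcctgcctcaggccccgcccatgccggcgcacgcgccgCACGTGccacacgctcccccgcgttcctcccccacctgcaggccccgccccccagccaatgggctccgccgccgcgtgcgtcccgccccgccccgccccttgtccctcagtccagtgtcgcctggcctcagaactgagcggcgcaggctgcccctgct
The share at glycolytic genes is a description of letters in these windows, with no test.

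Fewer of the respiratory chain and proteasome genes passed than the 38.5% of all tested genes. Of 76 nuclear genes of oxidative phosphorylation 6 rose and 9 fell (median -0.03), with 16 falls without tamoxifen replicate 2. The complex I genes Ndufs8 (-0.35) and Ndufa7 (-0.39) and the complex II gene Sdhb (-0.32) led. Of 42 proteasome subunits 2 rose and 7 fell (median -0.06). The lid gene Psmd7 (-0.29), the immunoproteasome gene Psmb10 (-0.41) and the activator gene Psme1 (-0.28, overlapping Emc9) led there. The proteasome rises numbered 1 or 0 whichever single library was left out, and the falls 4 without ethanol replicate 2 or tamoxifen replicate 1.

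Heat shock and chaperonin genes fell more often than they rose, while lysosomal genes rose. Genes of the endoplasmic reticulum were nearly balanced at an unadjusted p, and more fell than rose at the adjusted threshold. Of 26 genes of the endoplasmic reticulum 3 rose and 8 fell (7 and 8 at an unadjusted p of 0.05, median -0.01, fewer rises without ethanol replicate 2). They included Sdf2l1 (-0.60), the HSP70 chaperone Hspa5 (-0.33) and the HSP90 chaperone Hsp90b1 (-0.36). Of 31 heat shock and chaperonin genes 4 rose and 11 fell, among them the HSP90 cochaperone Chordc1 (-0.77), the chaperonin subunit Cct5 (-0.38) and Dnaja1 (-0.38, overlapping Smu1). Those rises numbered 1 without ethanol replicate 1 or tamoxifen replicate 1, and the falls 7 without ethanol replicate 2 or either ethanol library of 48 h. Of 30 lysosomal genes 16 rose and 2 fell (median 0.22; 1 fall without ethanol replicate 1 or 2, without tamoxifen replicate 1, and without either ethanol library of 48 h). Ctsd, the protease cathepsin D, stood at 145 and 138 FPKM in ethanol and 282 and 291 FPKM in tamoxifen (1.01 ± 0.06). Sqstm1, the p62 receptor of selective autophagy, stood at 119 and 119 FPKM against 211 and 209 FPKM (0.82 ± 0.05). Both were higher in both tamoxifen libraries, as was cathepsin B (Ctsb, 0.75), which overlaps Fdft1. Antioxidant genes were mixed at 12 rises and 7 falls among 29 (median 0.11), the leading ones being Gsto1 (1.05), the haem oxygenase Hmox1 (0.54) and Gpx3 (0.83). Lysosomal and antioxidant genes are also expressed in fibroblasts, whose markers rose in the same libraries; their part was not tested.

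DNA replication and mitosis genes fell by small amounts in the majority of members that passed. Of 51 replication genes 1 rose and 28 fell (median -0.19). The rises numbered 2 when tamoxifen replicate 2 was left out and 0 when any other library of 72 h was. Pole2, a subunit of the leading-strand polymerase, stood at 18.2 and 20.1 FPKM in ethanol and 10.2 and 12.1 FPKM in tamoxifen (-0.73 ± 0.09). The primase gene Prim1 (-0.42) and the origin recognition gene Orc3 (-0.50, overlapping Akirin2) came next. Of 43 mitotic genes 4 rose and 22 fell (median -0.18), with 2 and 14 without ethanol replicate 2. Bub1, a kinase of the spindle checkpoint, stood at 43.3 and 45.8 FPKM against 25.4 and 26.5 FPKM (-0.76 ± 0.07), with both tamoxifen libraries below both ethanol libraries. Topoisomerase II (Top2a, -0.43) and the spindle gene Nusap1 (-0.43, overlapping Oip5) fell less.

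The pluripotency network was lower in part. Of 14 core factors 0 rose and 7 fell by limma (1 and 8 at an unadjusted p of 0.05; median -0.18), and of 25 naive factors and markers 2 rose and 12 fell (median -0.25). Nanog, a homeobox factor of the core circuit, stood at 154 and 139 FPKM in ethanol and 97.4 and 108 FPKM in tamoxifen (-0.51 ± 0.07). Klf2, a Krüppel-like factor of the naive state, stood at 72.1 and 70.5 FPKM against 48.1 and 48.1 FPKM (-0.56 ± 0.06). Nr5a2, a nuclear receptor that binds the Pou5f1 promoter, stood at 8.09 and 7.61 FPKM against 3.71 and 3.60 FPKM (-0.93 ± 0.10). In all 3 both tamoxifen libraries were the lower ones. The markers Fbxo15 (-0.65, overlapping Timm21), Dnmt3l (-0.53, overlapping Aire) and Tdgf1 (-0.47) fell, as did Klf4 (-0.33), chosen after its values were seen. The nuclear receptor Esrrb did not pass, at 116 and 106 FPKM against 109.6 and 106 FPKM (-0.04), nor did Pou5f1. The 2 naive genes that rose were Tbx3 (0.48) and the secreted phosphoprotein Spp1 (0.48), which fibroblasts express as well; fibroblast markers rose in the same libraries, and their part in these changes was not tested.

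**Figure D4:**
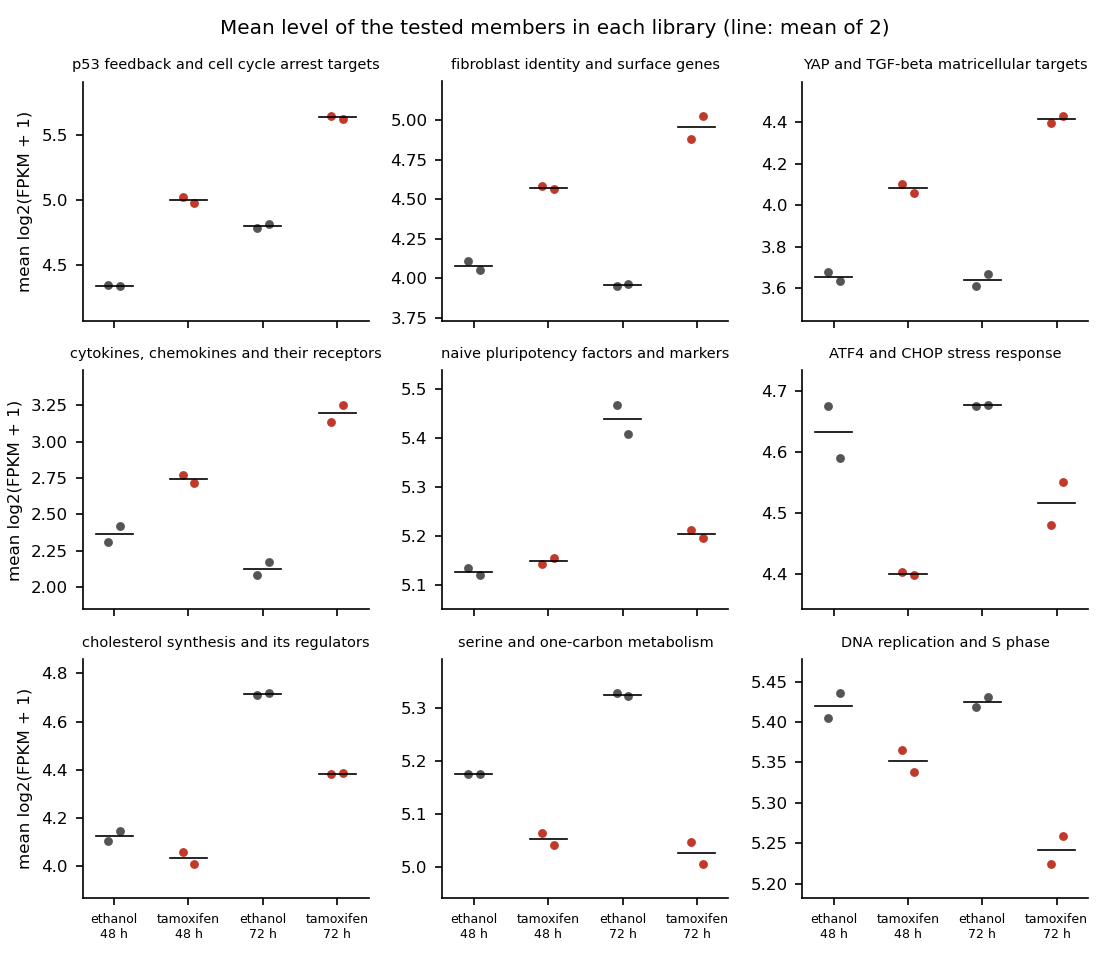
Mean log2(FPKM + 1) over the tested members of 9 gene lists (vertical axes, one panel each, not from 0) in each of the 8 libraries, grouped by agent and time; points are single libraries and bars the means of 2. In the fibroblast, YAP and p53 panels both tamoxifen points lie above both ethanol points at each time. In the naive panel both tamoxifen points lie slightly above both ethanol points at 48 h and below them at 72 h.

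Genes of the formative state that follows naive pluripotency, and of the signals that guide exit, moved unevenly. Of 22 formative and primed factors 9 rose and 4 fell (median 0.09). Lefty2, an inhibitor of Nodal, stood at 98.4 and 100.4 FPKM in ethanol and 55.6 and 54.9 FPKM in tamoxifen (-0.84 ± 0.05). Nodal, its ligand, stood at 31.7 and 31.5 FPKM against 51.6 and 54.9 FPKM (0.73 ± 0.06). Inhibitor and ligand thus moved in opposite directions in both tamoxifen libraries, and the ETS factor Etv4 rose (0.67). The other formative genes that fell were the DNA methyltransferase Dnmt3b (-0.36), Zic5 (-0.57) and Igfbp2 (-0.26). In the wider Nodal and BMP list 13 of 31 rose and 4 fell (median 0.13). Inhba, the activin subunit, stood at 11.2 and 12.4 FPKM against 24.8 and 25.2 FPKM (1.03 ± 0.07), and the BMP antagonist Grem1 changed by 1.01. The falls there were Lefty2, its co-receptor gene Tdgf1, and the ligands Gdf3 (-0.34) and Gdf1 (-0.53, overlapping Upf1), the last not without ethanol replicate 1 (adjusted p = 0.14) or tamoxifen replicate 1 (0.189). Of 27 FGF and ERK genes 13 rose and 2 fell (median 0.14); the rises included Fgf7 (1.05, overlapping Fam227b), a growth factor that mesenchymal cells secrete, and the falls were Fgf17 and Fgf4 (-0.40), the stem cells' own ligand. Of 30 WNT genes 15 rose and 5 fell (median 0.21; 3 falls without ethanol replicate 1 or tamoxifen replicate 2). Ccnd1, the cyclin D1 target gene, stood at 29.2 and 28.8 FPKM against 56.4 and 53 FPKM (0.89 ± 0.06), the ligand Wnt9a changed by 1.17 and the antagonist Dkk2 by 1.25. The secreted inhibitors Sfrp2 (-0.74), Sfrp1 (-0.63) and Notum (-0.54) and the receptors Fzd5 (-0.38) and Fzd7 (-0.22) fell. Notum did not pass without ethanol replicate 1 (adjusted p = 0.0744) or tamoxifen replicate 2 (0.0775), nor Fzd7 without the same libraries (0.067 and 0.0511). Fibroblasts express Inhba, Grem1, Fgf7 and Ccnd1 as well, and the part of the fibroblast marker rise in these 4 lists was not tested.

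Epigenetic and MYC network genes moved in both directions. The share that passed was 51.4% of the epigenetic and 45.5% of the MYC network genes, not far above the 38.5% of all tested genes. Of 35 DNA methylation, TET and Polycomb genes 8 rose and 10 fell (median -0.02). The Polycomb genes Suz12 (-0.40) and Eed (-0.41) and the dioxygenase Tet1 (-0.46) fell and Pcgf3 rose (0.42); Eed and Tet1 were chosen after their values were seen. Median-ratio scaling gave 4 rises and 12 falls, and the 72 h libraries alone 4 and 10. With ethanol replicates 1 and 2 left out in turn the rises numbered 4 and 3, and with tamoxifen replicate 1 left out 2. In the MYC network 6 of 22 rose and 4 fell (3 rises without ethanol replicate 1; 2 falls with no filter or with 72 h alone, 2 falls without ethanol replicate 2 and 1 without tamoxifen replicate 1). Myc stood at 6.92 and 7.75 FPKM in ethanol and 14.4 and 12.4 FPKM in tamoxifen (0.79 ± 0.09), with no overlap. The values of both groups were below the 32.2 and 33.5 FPKM of the ethanol libraries of 48 h. The cyclin gene Ccnd2 (1.01) and the MAX partner Mxd4 (0.68) rose. Of 15 germline genes that DNA methylation represses 2 rose and 1 fell (2 falls without tamoxifen replicate 2); Taf7l (0.88), Rhox6 (0.48) and Tex14 (-0.46) led. Of 20 imprinted genes 8 rose and 1 fell (4 falls without tamoxifen replicate 1), led by Igf2 (0.81), Peg3 (0.50) and Igf2r (0.38); the fall was Mest (-0.32), which overlaps Copg2.

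Genes of the early lineages passed the filter in part, and those that did included genes that fibroblasts also express. Of 15 primitive endoderm genes 7 were tested, and 4 of these rose and 0 fell (0 at an unadjusted p of 0.05), namely the matrix gene Sparc (0.72), the growth factor receptor Pdgfra (0.90), the adaptor Dab2 (0.65) and the zinc finger factor Gata6 (0.71); Sox17, Hnf4a and Afp stayed below it. Of 16 mesendoderm genes 5 were tested, and 3 rose and 0 fell (0 at an unadjusted p of 0.05): the ligand Wnt3 (1.08), Hand1 (0.84) and the EMT factor Snai1 (0.79). T, Mixl1, Gsc and Foxa2, which define that lineage, stayed below the filter. Of the 12 tested among 17 trophoblast genes 5 rose and 1 fell, led by the keratins Krt8 (0.46) and Krt18 (0.35), with Cdx2 and Elf5 below the filter (3 rises without ethanol replicate 2 or tamoxifen replicate 1, and 0 falls without ethanol replicate 2). Of the 13 tested among 23 neural genes 5 rose and 4 fell (3 rises without ethanol replicate 2 or tamoxifen replicate 1): Neurod1 rose, while the neuronal microtubule genes Stmn2 (-0.69) and Tubb3 (-0.56) fell and Sox1 was listed at 0 in all 4 libraries. Of the 16 genes of the 2-cell-like state 0 passed the filter, and Zscan4c stood at 0.558 and 0.577 FPKM in ethanol and 0.482 and 0.467 FPKM in tamoxifen.

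Fibroblast, matrix and contractile genes formed a broad rise. The median log2 change of the 30 tested fibroblast genes was 1.04. Thy1, a surface antigen of fibroblasts, stood at 33.1 and 34.5 FPKM in ethanol and 71.9 and 77.1 FPKM in tamoxifen (1.12 ± 0.06). Thbs1, the matricellular thrombospondin, stood at 129 and 135 FPKM against 267 and 282 FPKM (1.05 ± 0.05). The hyaluronan receptor Cd44 stood at 11.4 and 13.4 FPKM against 34.6 and 35.8 FPKM (1.44 ± 0.07). In all 3 both tamoxifen libraries lay above both ethanol libraries, and Cd44 rose furthest. Of 11 fibrillar and type VI collagen genes 9 rose and 0 fell (0 at an unadjusted p of 0.05; median 1.00), led by Col1a1 (1.19), Col12a1 (1.39) and Col1a2 (1.25); their sum went from 130.4 and 136 FPKM to 294 and 310.3 FPKM. Of 15 basement membrane genes 10 rose and 1 fell (median 0.39), led by Col4a1 (0.97) and Nid1 (0.81), the fall being the laminin of early epithelia, Lama1 (-0.47). Of 18 smooth muscle and SRF target genes 15 rose and 0 fell (0 at an unadjusted p of 0.05; median 0.53). Acta2, the actin of myofibroblasts, stood at 34.7 and 38.0 FPKM against 104 and 105 FPKM (1.5 ± 0.06), caldesmon (Cald1) changed by 0.97 and Tagln, which overlaps Pcsk7, by 1.08. Myh11 and Myocd, which define smooth muscle, stayed below the filter.

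Targets of YAP and TGF-beta, signals that respond to matrix and cell shape, rose with them. Of 18 tested, 17 rose and 0 fell by limma (0 at an unadjusted p of 0.05; median 0.80). Axl, a receptor tyrosine kinase, stood at 9.67 and 9.92 FPKM in ethanol and 23.2 and 24.4 FPKM in tamoxifen (1.20 ± 0.06). The letters GGAATG, or CATTCC on the other strand, are the core of sites bound by TEAD factors, the partners of YAP. They lay in 14.7% of all promoters, at 14.3% of tested genes with an entry, at 7 of 13 matched genes of this list (7 rose) and at 8 of 16 of the smooth muscle list (7 rose). The Axl promoter (chr7:25788684-25788983, minus strand, GRCm38.p6) is shown because Axl is the changed member with the smallest p that holds them, in capitals, 233 bases before the start.
Axl: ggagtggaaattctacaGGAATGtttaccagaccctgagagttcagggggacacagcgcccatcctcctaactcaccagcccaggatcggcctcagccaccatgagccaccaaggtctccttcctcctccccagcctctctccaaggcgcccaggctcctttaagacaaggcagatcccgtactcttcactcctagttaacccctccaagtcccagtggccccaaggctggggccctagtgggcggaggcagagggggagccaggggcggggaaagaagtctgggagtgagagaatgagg
Of the 6 matched genes of the YAP list without the letters 5 rose, and of those of the smooth muscle list without them 6 rose and 2 did not pass. Genes of this list are also expressed in fibroblasts, and the part of the feeder markers in it was not tested.

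Cytokines, chemokines and their receptors rose in the larger part of their tested members. Of 17 tested, 15 rose and 0 fell by limma (0 at an unadjusted p of 0.05; median 1.11). Csf1, the macrophage growth factor, stood at 24 and 24.2 FPKM in ethanol and 55 and 56.3 FPKM in tamoxifen (1.18 ± 0.06), with no overlap. Macrophage markers were low: the 10 listed genes summed to 16.5 and 15.2 FPKM and 37.0 and 44.0 FPKM. Of the 6 tested, 6 rose and 0 fell (0 at an unadjusted p of 0.05), among them lysozyme (Lyz2), at 11.2 and 10.03 FPKM against 25.1 and 30.7 FPKM (1.31 ± 0.12), Emr1 (0.93) and Cd14 (0.78). The defining markers Csf1r, Itgam and Ptprc stayed below the filter, Ptprc at 0 and 0.0662 FPKM in ethanol and 0.0896 and 0.176 FPKM in tamoxifen. Of 6 tested endothelial genes 3 rose and 0 fell (1 at an unadjusted p of 0.05; 1 fall without ethanol replicate 2 or tamoxifen replicate 2): Flt1 (0.68), Tek (0.67) and Eng (0.43), which overlaps Fpgs and lost its call without tamoxifen replicate 1 (adjusted p = 0.0535). Cdh5, Kdr, Emcn and Tie1 stayed below the filter. The part of macrophage, endothelial and fibroblast RNA in the cytokine rise was not tested.

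Interferon-stimulated genes moved in both directions. Of 23 tested 11 rose and 5 fell (median 0.29). Tap1, the peptide transporter of antigen presentation, stood at 5.61 and 4.88 FPKM in ethanol and 13.7 and 12.2 FPKM in tamoxifen (1.16 ± 0.11). The class I genes B2m (1.04, overlapping Patl2) and H2-D1 (0.72, a member of a multigene family whose counts are uncertain) rose with it. The membrane protein Ifitm1 (-0.68) and the factor Irf1 (-0.43), chosen after their values were seen, fell. The rises numbered 6 when tamoxifen replicate 2 was left out and 7 when any other library of 72 h was, and the falls 3 without ethanol replicate 2 or tamoxifen replicate 1. Of 11 genes of the IGF system 5 rose and 4 fell. The binding proteins Igfbp7 (1.16, overlapping Polr2b), Igfbp6 (1.08) and Igfbp4 (0.78) rose with Igf2 and Igf2r, while Igfbp3 (-0.51), Igfbp2 and the RNA-binding Igf2bp3 (-0.64) and Igf2bp2 (-0.31) fell. The last did not pass without ethanol replicate 1 (adjusted p = 0.111) or tamoxifen replicate 2 (0.0599). Of 19 epithelial junction genes 4 rose and 6 fell (2 rises without ethanol replicate 2). The claudin gene Cldn7 (-0.53) and the splicing regulator Esrp1 (-0.41) fell, as did Epcam (-0.33). E-cadherin (Cdh1) stood at 143 and 135 FPKM against 168 and 156 FPKM and rose (0.22), but not without ethanol replicate 2 (adjusted p = 0.079) or tamoxifen replicate 1 (0.0598). Epcam and Cdh1 were chosen after their values were seen.

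The 72 h response extended that of 48 h more than it replaced it. At 48 h 1466 genes changed (12.4%). Of the 935 that had risen 811 (86.7%) also rose at 72 h, and of the 531 that had fallen 419 (78.9%) also fell. The genes that passed only at 72 h were 1565 rises, 65.8% of all rises of 72 h, and 1768 falls, 80.7% of all falls. Over genes called at either time the median size of change was 0.38 at 72 h and 0.19 at 48 h. The change itself differed between the times in 409 genes (3.45%), being more positive at 72 h in 237 (2%) and more negative in 172 (1.45%). These counts rested on every library: leaving out ethanol replicates 1 and 2 and tamoxifen replicates 1 and 2 of 72 h in turn gave 98, 87, 160 and 83 more positive and 48, 40, 83 and 89 more negative. Leaving out those of 48 h in the same order gave 37, 41, 72 and 96, and 13, 21, 36 and 100. The file names carry one number in all 48 h libraries and another in all 72 h libraries, whose meaning is not given in the sources used here, and whatever it marks cannot be told apart from time.

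**Figure D5:**
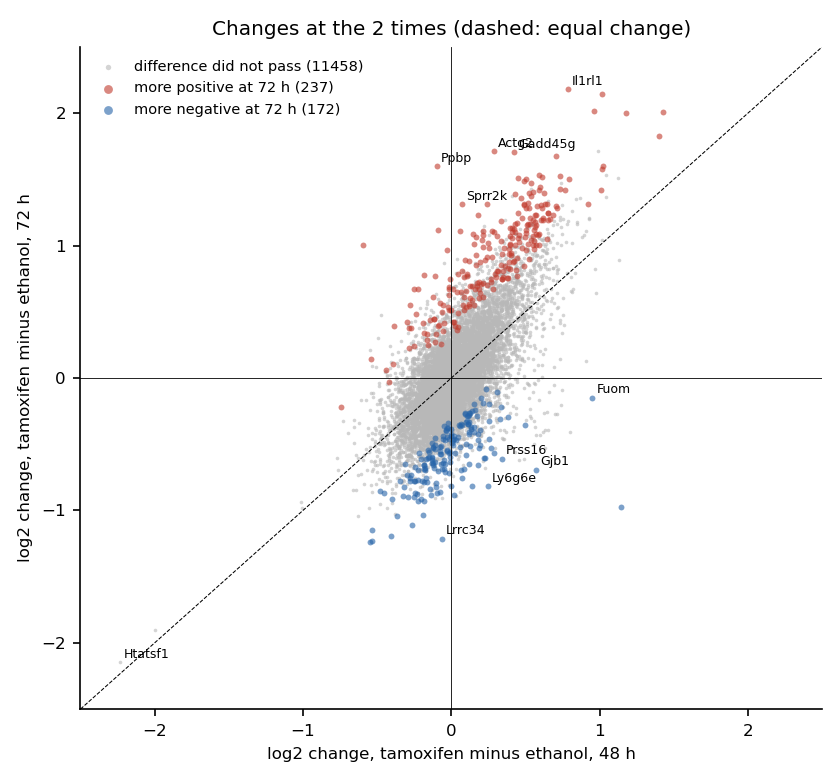
Log2 change at 72 h (vertical axis) against that at 48 h (horizontal axis) for the 11867 tested genes; the dashed line marks equal change, and colour marks genes whose change was more positive (237) or more negative (172) at 72 h. Htatsf1 lies near the dashed line, and Ppbp and Actg2 lie far above it.

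Several of the genes that differed between the times had also changed in the ethanol cells. Il1rl1 stood at 18 and 18.1 FPKM in ethanol and 33.8 and 30.0 FPKM in tamoxifen at 48 h, and its change differed between the times by 1.4 ± 0.11 (adjusted p = 0.00138). Its ethanol level changed by -1.74 on the log2 scale from 48 h to 72 h, and its tamoxifen level was lower at 72 h too. Ly6g6e, a surface protein of the Ly6 family, stood at 1.09 and 0.888 FPKM in ethanol at 48 h and 9.997 and 8.15 FPKM at 72 h, where tamoxifen cells held 4.60 and 4.78 FPKM (difference -1.07 ± 0.16). Lrrc34 went from 4.44 and 4.94 FPKM to 15.7 and 16.1 FPKM in ethanol and changed little in tamoxifen, from 5.37 and 3.64 FPKM to 6.08 and 6.51 FPKM (difference -1.15 ± 0.18). In these 3 genes the ethanol level moved more between the times than the tamoxifen level. Ldhb went from 56.3 and 55.6 FPKM to 199 and 197 FPKM in ethanol and from 51.8 and 52.4 FPKM to 104 and 120.1 FPKM in tamoxifen (difference -0.72 ± 0.09). Actg2 showed the other pattern: its ethanol level was 1.54 and 1.97 FPKM at 48 h and 1.49 and 0.925 FPKM at 72 h, and its tamoxifen level 2.17 and 2.53 FPKM and 5.76 and 6.61 FPKM (difference 1.43 ± 0.20, adjusted p = 0.00883).

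Some genes moved further at 72 h or turned. Gadd45g (1.28 ± 0.12), Ppbp (1.70 ± 0.34) and the cornified envelope gene Sprr2k (1.24 ± 0.15) changed more at 72 h; Sprr2k stood at 0.827 and 1.00 FPKM in ethanol and 3.74 and 3.79 FPKM in tamoxifen at 72 h and at 2.13 and 2.54 FPKM and 2.45 and 2.56 FPKM at 48 h. Gjb1, a gap junction connexin, stood at 0.176 and 0.335 FPKM in ethanol and 0.863 and 0.865 FPKM in tamoxifen at 48 h and at 1.58 and 1.5 FPKM and 0.784 and 0.385 FPKM at 72 h, so that the groups changed order (difference -1.26 ± 0.20). The fucose mutarotase gene Fuom was higher with tamoxifen at 48 h (0.95) and its change of -0.15 at 72 h did not pass. The peptidase gene Prss16 fell at 72 h (-0.61), though not without ethanol replicate 1 (adjusted p = 0.0569) or tamoxifen replicate 2 (0.0881). Ddit3, the CHOP gene, stood at 9.41 and 8.32 FPKM in ethanol and 9.22 and 7.38 FPKM in tamoxifen at 48 h, a change of -0.09 that did not pass (adjusted p = 0.654), and its difference was 1.21 ± 0.16. The differences of Il1rl1, Actg2, Gadd45g, Sprr2k, Ldhb and Ddit3 passed whichever 1 of the 8 libraries was left out. Those of Lrrc34, Gjb1 and Fuom did not pass without ethanol replicate 1 of 48 h (adjusted p = 0.0675, 0.067 and 0.0675), nor that of Ly6g6e without ethanol replicate 2 of 48 h (0.0579). That of Ppbp passed only without ethanol replicate 2 or tamoxifen replicate 1 of 72 h, and that of Prss16 only without tamoxifen replicate 1 of 72 h or tamoxifen replicate 2 of 48 h, with adjusted p-values of up to 0.11 and 0.152 otherwise.

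By list, naive factors and markers were nearly level at 48 h and lower at 72 h, with median changes of 0.02 and -0.25. Of the 25 tested, 7 were more negative at 72 h than at 48 h and 0 more positive by limma, and 3 of 14 core factors were more negative. The naive count was 2, 3, 4 and 5 without ethanol replicates 1 and 2 and tamoxifen replicates 1 and 2 of 72 h, and 0, 2, 2 and 2 without those of 48 h; the core count ran from 0 to 2. The naive genes' median change in ethanol cells alone between the times was 0.26. Of the fibroblast genes 15 of 30 were more positive at 72 h, which was 4 without ethanol replicate 1 of 48 h, the lowest value, and 18 without tamoxifen replicate 1 of 72 h, the highest. The more positive members numbered 8 of 17 cytokine genes, 6 of 18 smooth muscle genes, 6 of 18 YAP and TGF-beta targets and 5 of 11 collagens, and without ethanol replicate 2 of 48 h, where each was lowest, these counts were 2, 3, 0 and 2. In the p53 arrest list 4 of 19 were more positive (1 or 2 with 1 library left out), with medians of 0.51 and 0.58. The ATF4 and synthetase lists had medians of -0.27 and -0.17 at 48 h and -0.29 and -0.16 at 72 h.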

How the data were processed

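RNA from 8 libraries of mouse embryonic stem cells, 2 per agent and time, was sequenced in paired ends, per the labels. The authors deposited 1 table of FPKM per library, with confidence bounds, and a table of their 72 h comparison with mean scaled counts (signal), a fold ratio, log2 fold changes and p-values. DESeq, HTSeq, Cufflinks 1.3.0, TopHat 1.4.1 and BWA 0.6.1 are named with mm9 and no roles, per the submitters' processing notes. Of 20461 gene identifiers 20388 were kept, after entries with a status other than OK and repeated entries were resolved. Genes with 2 or more of 8 libraries at 1 FPKM or above were tested as log2(FPKM + 1) with limma 3.58.1 (R 4.3.3): 4 group means, 4 residual degrees of freedom, a mean-variance trend, two-sided, Benjamini-Hochberg over 11867 genes, threshold 0.05. Steps were tested on simulated data. Fragments were implied from the confidence bounds, taking the bound as 2 SD. Alternatives were median-ratio scaling, quantile normalization, pseudocounts of 0.1 and 5, no filter, FPKM of at least 5, no trend, 72 h alone, the replicate block and each library left out.

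Named genes are Htatsf1, the 12 largest rises and falls among called genes whose groups do not overlap, leaving out uncharacterised genes and small RNAs, the 5 largest differences each way, and the 3 members of smallest p in each of 52 lists; others were named after their values were seen, and some genes are not reported here. The members and lists were chosen with earlier results of these data known. Promoters are RefSeq sequences on GRCm38.p6; positions from the files are on mm9.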

Additional observations from a re-analysis of the deposited data

Results flagged for a closer look

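By limma's test of the difference itself, the change from ethanol to tamoxifen differed between the times in 83 of the 220 genes named here. The share over all tested genes was 3.45%, and some of the 220 were named for this difference. The others were named in large part for size or small p at 72 h, and the change at 72 h enters the difference. The larger share among named genes was therefore largely set by how they were chosen and is no further result. Values are log2 changes at 72 h minus those at 48 h, and 52 were positive and 31 negative. The sign stayed the same in every one of the 83 when any 1 of the 8 libraries was left out, 21 passed in each of these fits and 11 in none. The 83 were picked for a difference in the full fit, so a kept sign was largely set by that choice. Time and the number that differs between the file names of the times cannot be told apart.

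Immune and signalling genes with more positive changes at 72 h were Ppbp (1.70), Il1rl1 (1.4), Ltb4r2 (1.13), Ltb4r1 (1.05), Lyz2 (0.82), Emr1 (0.76), Csf1 (0.61), Dkk2 (0.80), Wnt9a (0.65), Igfbp6 (0.87), Igfbp4 (0.68), Igf2 (0.50) and Axl (0.54). Matrix and contractile genes were Actg2 (1.43), Acta2 (1.00), Cd44 (0.84), Col12a1 (0.77), Tagln (0.62), Thy1 (0.61), Col1a2 (0.59), Col1a1 (0.58), Cald1 (0.42) and Thbs1 (0.41). Of the 30 tested fibroblast markers 15 had more positive changes at 72 h in the same libraries, and their part in these values was not tested.

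Genes of the p53 lists and stress genes with more positive changes were Gadd45g (1.28), Ddit3 (1.21), Pmaip1 (0.87), Mdm2 (0.82), Ephx1 (0.65), Plk2 (0.57), Ddit4 (0.45), Zfp365 (0.43), Perp (0.41), Cdkn1a (0.39) and Aldh4a1 (0.36). Transcription factors, cyclins and keratins were Fosl1 (0.97), Myc (0.74), Ccnd1 (0.66), Neurod1 (0.59), Foxj1 (0.58), Etv4 (0.51), Ccnd2 (0.41), Krt18 (0.41) and the cornified envelope gene Sprr2k (1.24). Lysosomal and splicing genes were Ctsd (0.49), Ctsb (0.40), Sqstm1 (0.38), Rbm17 (0.38), Sf3b3 (0.33) and Srsf11 (0.32). Genes that fell at 48 h and rose at 72 h included Gm3258 (1.60), Anapc16 (0.72) and H1f0 (0.51).

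More negative changes at 72 h were found in the pluripotency and signalling genes Nr5a2 (-0.74), Fbxo15 (-0.59), Klf2 (-0.55), Klf4 (-0.44), Dnmt3l (-0.42), Nanog (-0.40), Tet1 (-0.48), Lefty2 (-0.69), Fgf17 (-0.85) and Fgf4 (-0.36). Metabolic and mitochondrial genes were Ldhb (-0.72), Pdk1 (-0.69), Bnip3 (-0.61), Ndufs8 (-0.40), Sqle (-0.40) and Fuom (-1.10). Others were Lrrc34 (-1.15), Ly6g6e (-1.07), Prss16 (-0.95), Phf11d (-0.85), Pycard (-0.79), Enpp3 (-0.70), Mplkip (-0.68), Igfbp3 (-0.63), Igfbp2 (-0.39), Stmn2 (-0.47) and U2surp (-0.39). Genes that rose at 48 h and fell at 72 h included Gm20594 (-2.12), Gjb1 (-1.26), Tfap2c (-0.68) and Rbmxl2 (-0.40).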

How the results depend on the processing

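Rises at 72 h ran from 1796 to 2454 over the alternatives and falls from 1460 to 2516, against 2380 and 2192. With 1 of the 8 libraries left out rises numbered 1800 to 2334 and falls 1460 to 2172, the lone library of a group being assumed to vary like the others. Rises of at least 2-fold (183) numbered 161 to 207 with 1 library left out, 414 with a pseudocount of 0.1 and 48 with a pseudocount of 5, and falls of at least 2-fold (11) 64 and 4; these falls numbered 17 after quantile normalization and 11 to 20 with 1 library left out. The cause of the quantile value was not tested; the pseudocount sets how far low genes can move.

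The difference between the times depended on settings and on single libraries. Against 237 more positive and 172 more negative genes, there were 31 and 13 with no filter on low values, which tests more genes, and 148 and 78 with no mean trend. With 1 library left out, which leaves fewer samples, they ran from 37 to 160 and from 13 to 100; leaving out 48 h libraries was chosen after seeing the data. Whether the replicate numbers pair the samples is not known. Same-numbered deviations correlated at -0.06 at 72 h and 0.00 at 48 h, which cannot decide it with 2 libraries per group. The fit with the replicate block gave 2351 rises, 2155 falls, and 133 more positive and 79 more negative genes.

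Of 220 named genes 203 kept their direction and side of the threshold at 72 h in all 17 alternatives, and 0 reversed. These genes were picked in large part for size or small p in the main fit, where 214 of the 220 passed. Their stability was largely set by that choice and does not describe the 4572 calls. Of the counts per list 1621 stayed within 1.5 times the main value and 147 did not. Where the lists' counts depended on 1 library, this is given beside them. Few libraries and depth were not separated as limits, and the libraries of a group differed by 3.20 and 5.72 times the counting variance. In simulated data 60% of genes raised and 58% of genes lowered by 0.5 log2 units were recovered at 72 h. At 1 unit these shares were 96% and 98%. There 50 genes were changed in each of these ways and 11667 of the 11867 were left unchanged, of which 0.0514% were called. The real data had calls in 38.5% of tested genes, so the adjusted threshold works differently there and these shares do not carry over. The simulated noise was independent between genes and held no shift of a whole library.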

Other observations

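In all, 9 genes changed in opposite directions at the 2 times. The trophoblast and germ cell factor Tfap2c stood at 20.5 and 17.8 FPKM in ethanol and 25.5 and 24.9 FPKM in tamoxifen at 48 h, and at 57.3 and 59.2 FPKM and 48.3 and 46.5 FPKM at 72 h; its ethanol level thus changed by 1.56 log2 units between the times. Anapc16, a subunit of the anaphase-promoting complex that overlaps Ascc1, stood at 16.9 and 16.9 FPKM and 13.7 and 13.4 FPKM and then at 10.8 and 11.2 FPKM and 15.5 and 14.7 FPKM. In both genes the tamoxifen level changed less between the times than the ethanol level. Gm20594, an unnamed gene of very high level, went from 833 and 1136 FPKM in ethanol and 2638 and 1757 FPKM in tamoxifen to 2979.9 and 3284 FPKM and 1374 and 1843 FPKM. Others were Gjb1 (-0.69 at 72 h), Rbmxl2 (-0.19), Gm3258 (1.01, overlapping Tpd52l1) and the linker histone gene H1f0 (0.22). The call at 72 h was lost for Tfap2c without ethanol replicate 2 of 72 h (adjusted p = 0.0524). That of Rbmxl2 was lost without ethanol replicate 2 (0.126) or tamoxifen replicate 1 (0.0888), with no mean trend (0.0599) and with 72 h alone (0.0503). That of H1f0 was lost whichever library of 72 h was left out (0.0756 to 0.166), with median-ratio scaling (0.0571), with no filter (0.0783) and with no mean trend (0.0753).

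By chromosome the share of tested genes that fell was highest on chromosome 8 at 24.9% of 662, and the share that rose was highest on chromosome 2 at 23.9% of 928 and chromosome 11 at 23.6% of 975. On chromosome X, which holds Htatsf1, 16.2% of 407 rose and 18.2% fell.

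The authors' deposited table lists 2807 genes as higher and 2643 as lower with tamoxifen at an adjusted p of at most 0.05. Among 11859 genes in both tables, 4054 were called in the same direction and 0 in opposite directions, which is 88.7% of the calls made here from FPKM and 80.5% of the authors' calls. In 16 genes listed at 0 FPKM in every library the authors' deposited table holds a mean scaled count of at least 100 in both groups. Among them Sdpr, a caveolar protein gene, has a mean scaled count of 118 in ethanol and 293 in tamoxifen there, and Capn10 334 and 515.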
